A study of Drosophila melanogaster with 3 samples.

Results

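The genes described here encode subunits of the oxidative phosphorylation complexes of Drosophila melanogaster, and the question was how often and where a pdm3 ChIP-seq peak lay at their promoters. Members were the protein-coding genes whose symbol starts with ND-, Sdh, UQCR, COX and a digit, or ATPsyn. This choice by name gave 88 of 13945 protein-coding genes. Of these, 40 were named for complex I, 8 for complex II, 9 for complex III, 16 for complex IV and 15 for complex V. By their symbols, 63 were standard subunit genes, 24 were paralogs whose symbol ends in L, with or without a digit, and 1, Sdhaf3, is an assembly factor of complex II. ND-MNLL, whose symbol also ends in L, was counted as standard.

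The factor mapped was pdm3, a transcription factor of the POU-homeodomain class, in whole animals at the white prepupa stage, the start of metamorphosis. All 3 samples were biological replicates of 1 group: a transgenic line of strain pdm3-GFP, stably expressing pdm3 fused at its C terminus to GFP, with males and females pooled. Per the labels the immunoprecipitation used an antibody against GFP, while the antibody field names pdm3, and there was no other genotype, stage or treatment to compare. In whole animals, binding in few cells and weak binding in many cannot be told apart.

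Oxidative phosphorylation couples the oxidation of NADH and succinate to ATP synthesis in the inner mitochondrial membrane. Complexes I and II pass electrons to ubiquinone, complex III passes them on to cytochrome c, complex IV reduces oxygen, and complex V, the ATP synthase, uses the resulting proton gradient. Most of their subunits are encoded in the nucleus and must be made in step with those encoded by mitochondrial DNA.

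Each replicate had its own deposited list of 30000 candidate peaks, and the pooled replicates had another of the same length. From these the authors derived the reproducible peaks, which they name optimal. There were 8164 of these, equal to the 8164 highest pooled candidates, with signal values from 89.8 to 4114 and a median of 173.1. A signal value is the authors' own number for a peak and serves here for ranking inside a list only. Library depth is unknown because the lists hold no read counts, and all intervals below are 95% Wilson intervals that cover counting error over genes or peaks only. A gene was counted as having a summit when the highest point of a peak lay within 1 kb of any of its transcription start sites.

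Of the 88 members, 17 had an optimal summit, which is 19.3% (12.4 to 28.8%). The background over all protein-coding genes was 21.3%, inside that interval. Counting every pooled candidate gave 31 members or 35.2% (26.1 to 45.6%), beside 37.4% of all genes. The subunit genes as a whole were therefore near the background under both counts.

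Each replicate's own list, taken to the same length of 8164 peaks, gave a summit at 19 members in replicate 1, at 13 in replicate 2 and at 20 in replicate 3. These are 21.6%, 14.8% and 22.7%, beside 23.4%, 22.7% and 25.2% of all genes in the same lists. The mean over replicates was 19.7% ± 4.3 (SD, n = 3) for the members and 23.8% ± 1.27 (SD, n = 3) for all genes. The members' share was below the background in all 3 lists, by the widest margin in replicate 2. The members' interval nevertheless held the background in each list (14.3 to 31.3%, 8.84 to 23.7% and 15.2 to 32.5%). Standard genes alone were at 28.6%, 19% and 30.2%, and paralogs at 4.17% in each list. A summit in the top of all 3 lists was present at 11 members, 12.5%, beside 17.4% of all genes, while 64 members, 72.7%, had one in none, beside 69.5% of all genes.

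Complex I, the NADH dehydrogenase, had an optimal summit at 8 of 40 members, 20% (10.5 to 34.8%). Complex II, which also serves the citrate cycle as succinate dehydrogenase, had one at 2 of 8, 25% (7.15 to 59.1%). Complex III had one at 2 of 9, 22.2% (6.32 to 54.7%), and complex V at 3 of 15, 20% (7.05 to 45.2%). Complex IV, cytochrome c oxidase, had the lowest share, 2 of 16 or 12.5% (3.5 to 36%). All 5 intervals held the background of 21.3% and overlapped each other, so no order of the complexes could be read from these counts. These shares include paralogs. Among standard genes alone, complexes I to V had a summit at 8 of 34 (12.4 to 40%), 2 of 4 (15 to 85%), 2 of 6 (9.68 to 70%), 1 of 8 (2.24 to 47.1%) and 3 of 11 (9.75 to 56.6%). The background of 21.3% lay inside each of these intervals too.

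In the replicates' own lists complex I had a summit at 9, 7 and 12 members in replicates 1, 2 and 3, a mean of 23.3% ± 6.29 (SD, n = 3). For complex II the counts were 3, 1 and 2, and for complex III they were 2, 0 and 1. Complex IV had 2 and complex V had 3 in each of the 3 lists. In complex IV these were COX7AL2 and COX7B in all 3 lists. In complex V they were ATPsynE, ATPsynCF6 and ATPsynbeta in replicates 1 and 3, and ATPsynE, ATPsynC and ATPsynD in replicate 2.

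**Figure D1:**
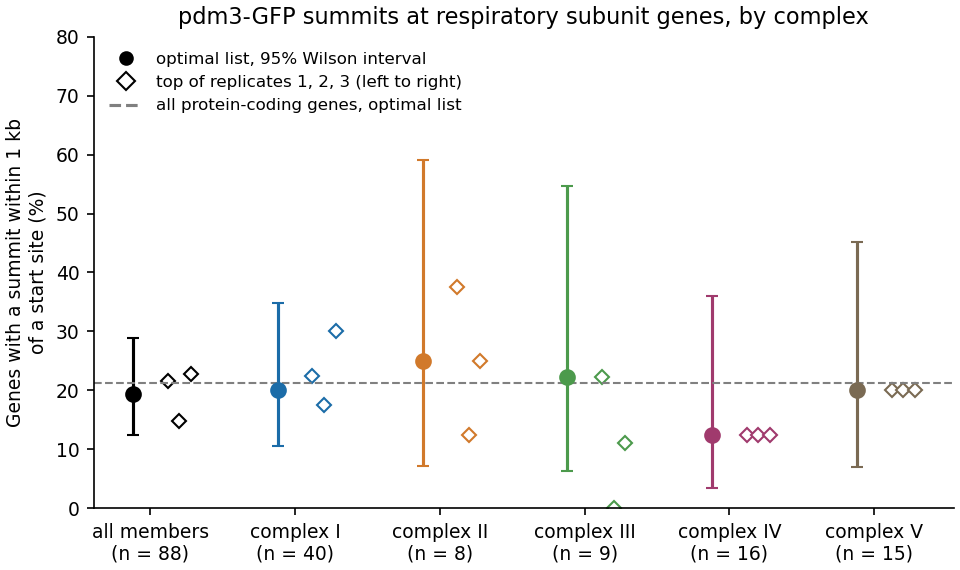
Genes whose start site has a summit within 1 kb (% of genes), for all 88 members and for each complex. Filled points with bars are the optimal list with its 95% Wilson interval, open diamonds are the equally long tops of replicates 1, 2 and 3 from left to right, and the dashed line is the 21.3% of all protein-coding genes in the optimal list. The bars of all 5 complexes cross the dashed line.

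Among the 63 standard subunit genes 16 had an optimal summit, 25.4% (16.3 to 37.3%), and among the 24 paralogs 1 did, 4.17% (0.739 to 20.2%). The paralog was COX7AL2. The background of 21.3% lay inside the first interval and just above the second. The split also follows gene arrangement: 69.8% of the standard genes, but 29.2% of the paralogs, had another gene's start site within 1 kb. With such a neighbour 12 of 44 standard genes (16.3 to 41.8%) and 1 of 7 paralogs (2.57 to 51.3%) had a summit, beside 27.7% of all genes so arranged. Without one the counts were 4 of 19 (8.51 to 43.3%) and 0 of 17 (0 to 18.4%), beside 16.4%. Each of these intervals held the share of all genes so arranged. Standard genes also had more start sites, 1.57 on average beside 1.17 for paralogs. The part of gene arrangement and of start sites in the difference was not tested.

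The highest member peak lay at ND-ASHI, an accessory subunit of the membrane arm of complex I. It spanned X 6679125 to 6679542 on dm6 with a signal value of 1057. Its summit lay in an intron of Fum1, which encodes the citrate cycle enzyme fumarase. That summit was 226 bp upstream of the ND-ASHI start and 296 bp upstream of the nearest Fum1 start. The peak ranked 187 in replicate 1, 188 in replicate 2 and 188 in replicate 3, where rank 1 is the highest of 30000 candidates. Of all member peaks it was the highest in each list and varied least in rank.

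The next member peaks of complex I were shared with genes of other function. ND-MWFE, another small membrane-arm subunit, had a peak at 2R 13158337 to 13158625 with a signal value of 635.2 and ranks 573, 577 and 740 in replicates 1, 2 and 3. Its summit was 170 bp upstream of ND-MWFE but 51 bp from the start of TppII, a large cytosolic peptidase. At ND-75, which encodes the large iron-sulfur subunit of the electron-input module, the peak at X 8252308 to 8252556 had a signal value of 483.9, with its summit 775 bp upstream of ND-75 and 208 bp from CG1632. It ranked 1026 in replicate 2 and 1016 in replicate 3, and in replicate 1 a peak of rank 937 overlapped it by less than the required 50% of its length.

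ND-42, an accessory subunit of complex I, had a peak at 3R 22027266 to 22027501 with a signal value of 345.7. Its summit was 269 bp upstream of ND-42 and inside the 5′ UTR of Cchl, 40 bp from the Cchl start. Cchl encodes cytochrome c heme lyase, which attaches heme to cytochrome c. This summit, like the one shared by ND-ASHI and Fum1, thus lay near the starts of 2 mitochondrial genes. The ND-42 peak ranked 1595 in replicate 1 and 1721 in replicate 2, and in replicate 3 a peak of rank 1763 covered less than 50% of it.

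ND-51 encodes the flavoprotein that binds NADH, and its peak at 2L 6062718 to 6062940 had a signal value of 339.6 with ranks 1674, 2283 and 1560 in replicates 1, 2 and 3. The summit was 85 bp upstream of ND-51 and 147 bp from CG13994. ND-SGDH, a membrane-arm subunit, had a peak at 3L 12138689 to 12138796, signal value 302.1, with ranks 1564, 2590 and 2263. That summit was 119 bp upstream of ND-SGDH and 165 bp from RhoGAP68F, a GTPase-activating protein gene. Both peaks were in the top of all 3 replicate lists and nearer to the respiratory gene than to its neighbour.

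ND-MNLL, a small membrane-arm subunit, was flanked by a pair of optimal peaks. The higher, X 7892478 to 7892897, had a signal value of 238.9 and ranks 2490, 3725 and 3085 in replicates 1, 2 and 3, with its summit 873 bp downstream of the start. The other, X 7893790 to 7893951, had a signal value of 212.4 and ranks 3331, 3959 and 3340, with its summit 55 bp upstream of the start and 178 bp from p115, a vesicle tethering factor. CG45089 shares the start sites of ND-MNLL in the annotation, so neither peak separates these genes. The last complex I gene with an optimal summit, ND-B22, had it 39 bp downstream of its start in its own 5′ UTR, with no other gene's start within 1 kb and a signal value of 128.1.

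In complex II the summits were at SdhC and SdhD, which encode the subunits that anchor the enzyme in the membrane, and not at the catalytic subunits. The SdhC peak at 3R 11209827 to 11210246 had a signal value of 177.6 and ranks 4607, 3656 and 4691 in replicates 1, 2 and 3, with its summit 188 bp upstream of SdhC and 210 bp from Tctp, a growth regulator. The SdhD summit lay 40 bp upstream of its start with a signal value of 129.7 and ranks 6241, 9075 and 4855. SdhA, the flavoprotein, had a peak of rank 1932 in replicate 1 and none in the other lists, and SdhB, the iron-sulfur subunit, had a pooled candidate below the optimal list.

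In complex III the summits were at UQCR-14 and UQCR-11, small subunits of the cytochrome bc1 complex. The UQCR-14 peak had a signal value of 122 and its summit 896 bp upstream in the 3′ UTR of the neighbouring gene eas, and it ranked 6298 in replicate 1 and 5485 in replicate 3. The UQCR-11 peak, 122 bp upstream of its start, had a signal value of 92.99 and ranks 8047 and 10553 in the same lists. In replicate 2 neither peak had a counterpart.

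In complex IV the COX7AL2 peak at 2L 2197122 to 2197541 had a signal value of 253 and ranks 3132, 2862 and 2232 in replicates 1, 2 and 3. Its summit was 580 bp downstream of a start site in the gene's own 5′ UTR with no other start within 1 kb. The other COX7AL2 peak, 568 bp upstream of a start, had a signal value of 119.9 and was high only in replicate 2, with ranks 11639, 2956 and 8831. COX7B, a small subunit gene, had a peak at 3L 17425085 to 17425504, signal value 218.1, with ranks 3480, 3012 and 2928 and its summit 182 bp upstream of COX7B and 78 bp from Sec3, an exocyst subunit.

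In complex V the highest peak was at ATPsynE, a subunit of the membrane part of the synthase, at 3R 14327807 to 14328001 with a signal value of 350.2. It ranked 2270, 1682 and 1237 in replicates 1, 2 and 3, and its summit was 826 bp downstream of the ATPsynE start. The peak of ATPsynCF6, the coupling factor of the peripheral stalk, at 3R 23356046 to 23356465 had a signal value of 171, ranks 4629 and 4355 in replicates 1 and 3 and no counterpart in replicate 2. Its summit was 192 bp upstream of ATPsynCF6 and 22 bp from Sec13, a coat protein of secretory vesicles and a nucleoporin. ATPsynbeta, the catalytic subunit, had a summit 391 bp upstream and 118 bp from CG11076, with a signal value of 112.4 and ranks 4731, 12989 and 7073. All 3 of these summits were nearer to another gene's start than to the complex V gene.

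**Figure D2:**
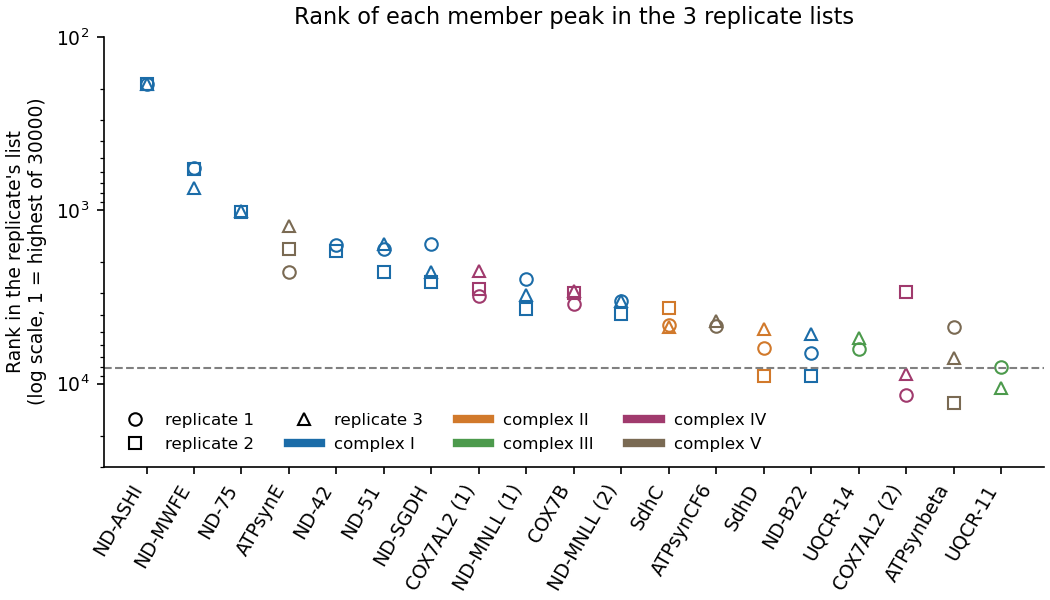
Rank of each of the 19 optimal member peaks in the lists of replicates 1, 2 and 3 (log axis, 1 = highest of 30000), ordered by signal value and coloured by complex; (1) and (2) mark the higher and lower peak of a gene. A missing symbol means that no peak of that replicate covered 50% of the member peak, and the dashed line is rank 8164. The ND-ASHI ranks of 187, 188 and 188 fall on one point, while the second COX7AL2 peak spans 2956 to 11639.

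Over the 17 members with a summit the median of the highest signal value was 238.9, beside 252.1 over all 2965 genes with a summit. The medians by complex were 342.6 for I, 153.7 for II, 107.5 for III, 235.5 for IV and 171 for V, on 8, 2, 2, 2 and 3 genes. The 6 highest member genes included 5 of complex I, which held 8 of the 17 genes with a summit, and ND-ASHI alone was above 1000. Among these 6, the summits of ND-MWFE, ND-75, ATPsynE and ND-42 were nearer to another gene's start.

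Around the lower limit of the optimal list, the 3 lowest member peaks inside it were those of UQCR-11 at 92.99, ATPsynbeta at 112.4 and the second of COX7AL2 at 119.9. The 3 highest outside it were at ATPsynD, a peripheral stalk subunit, at 69.75, COX5B at 62.36 and ND-39 at 57.93, followed by ND-B18 at 56.23 and SdhB at 54.21. Their pooled ranks were 10365, 11397, 12135, 12456 and 12877. ATPsynD ranked 21703, 6337 and 17645 in replicates 1, 2 and 3, and COX5B ranked 11104, 27139 and 12557. ND-B18 ranked 10092, 29253 and 10287. ND-39 ranked 13493 and 9861, and SdhB 12805 and 14944, in replicates 1 and 3, with no counterpart in replicate 2. Apart from ATPsynD, these candidates were weakest or missing in replicate 2.

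The other members with a pooled candidate but no optimal summit were ND-B14.5B, ND-B8, ND-MLRQ, ND-AGGG and ND-B16.6 of complex I, the paralog UQCR-6.4L of complex III, and COX7C with the paralogs COX7CL and COX6AL2 of complex IV. All of them ranked below the 5 just described in the pooled list. In total 14 members were in this class. Of the 88 members, 31 had a pooled candidate summit and 17 of these an optimal one. Of all 13945 protein-coding genes, 5211 had a pooled candidate summit and 2965 of these an optimal one.

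The remaining 57 of the 88 members had no pooled candidate summit within 1 kb, beside 8734 of 13945 protein-coding genes. In complex I these were ND-49, ND-30, ND-24, ND-23, ND-20, ND-19, ND-18, ND-15, ND-13A, ND-13B, ND-ACP, ND-PDSW, ND-B12, ND-B14, ND-B14.5A, ND-B14.7, ND-B15, ND-B17 and ND-B17.2. The complex I paralogs ND-51L1, ND-51L2, ND-49L, ND-24L, ND-20L and ND-B14.5AL were also without one. In complex II they were SdhA, Sdhaf3 and the paralogs SdhAL, SdhBL and SdhCL.

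In complex III the genes without a candidate included UQCR-C1 and UQCR-C2, the core subunits, with UQCR-Q, UQCR-6.4, UQCR-11L and UQCR-14L. In complex IV they were COX4, COX5A, COX6B, COX7A and COX8 with the paralogs COX4L, COX5BL, COX6AL, COX6CL and COX7AL. In complex V they were ATPsynB, ATPsynC, ATPsyndelta, ATPsynF, ATPsynG, ATPsyngamma and ATPsynO with the paralogs ATPsynbetaL, ATPsynCF6L, ATPsynepsilonL and ATPsynGL. The central stalk subunits gamma and delta and the membrane ring subunit c of the ATP synthase thus had no pooled candidate.

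Some of these genes had a peak in the top of 1 or 2 replicate lists. ND-24, a subunit of the electron-input module, had a peak of rank 1421 in replicate 3, 99 bp from its start, and none in the other lists. SdhA had rank 1932 in replicate 1 only, 876 bp from its start. ND-49, a core subunit near the ubiquinone site, had ranks 7084 and 8065 in replicates 1 and 3, although the nearest pooled candidate was 11197 bp away. ND-23 had rank 7140 in replicate 3, ND-B17 had ranks 9832 and 7106 in replicates 1 and 3, and ATPsynC had rank 5663 in replicate 2. None of these had an optimal summit.

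The 19 member summits were a median of 192 bp from the start site of the member, ranging from 39 to 896 bp. Over all genes the median was 249 bp. Of the member summits 15, or 78.9%, were upstream, beside 77.7% over all genes, and 13, or 68.4%, were within 500 bp, beside 74.5%. Position relative to the start was thus close to that over all genes.

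Many member summits were shared with another gene. For 13 of 19, or 68.4% (46 to 84.6%), another protein-coding gene also had a start site within 1 kb. Counted in the same way, once for each gene and summit, this held for 45.6% of 3940 pairs over all genes, just below the members' interval. Counting each summit only for the gene with the nearest start left 10 members, 11.4%, beside 16.8% of all genes, and 0 of 15 in complex V. The members lost were ND-MWFE, ND-75, ND-42, COX7B, ATPsynE, ATPsynCF6 and ATPsynbeta.

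**Figure D3:**
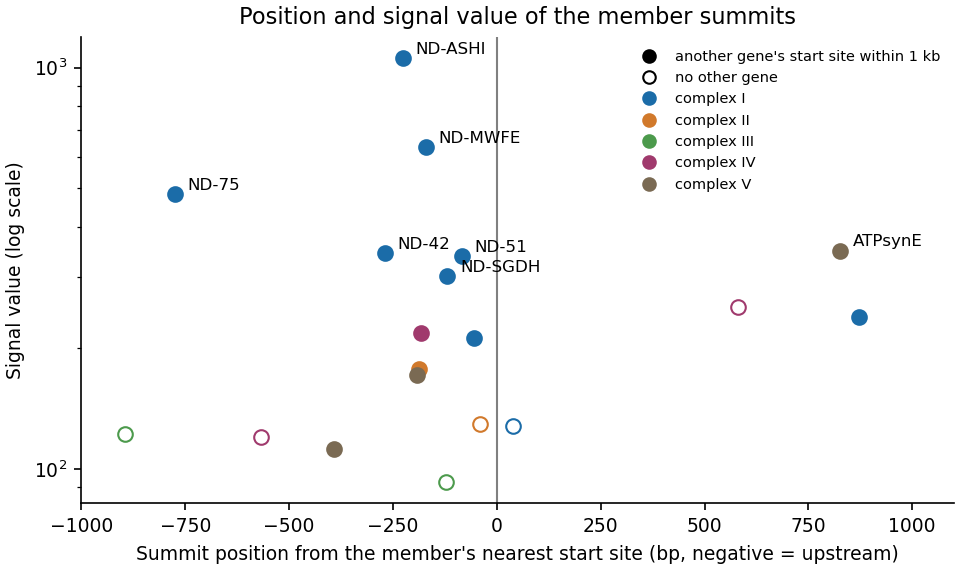
Summit position from the member's nearest start site (bp, negative is upstream) against signal value (log axis) for the 19 optimal member summits, coloured by complex. Filled points have another gene's start site within 1 kb and open points have none. The labelled summits, all above 300, are filled, and 15 of the 19 lie upstream.

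Respiratory genes were short and close to other genes. Their median length was 1097 bp, beside 2166 bp over all genes, and 51 of 88, 58%, had another gene's start within 1 kb, beside 42.9%. Members with such a neighbour had a summit in 13 of 51, 25.5% (15.5 to 38.9%), where the background for genes so arranged was 27.7%. Members without one had a summit in 4 of 37, 10.8% (4.29 to 24.7%), beside 16.4%. Among genes under 5 kb with 1 start site the counts were 6 of 51 members, 11.8% (5.51 to 23.4%), beside 13.2%. In every one of these classes the members' interval held the background.

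**Figure D4:**
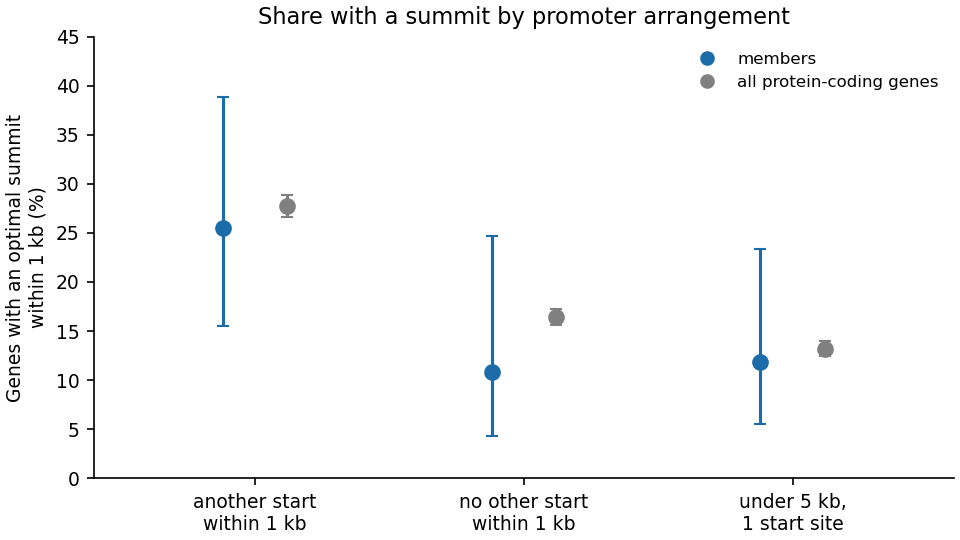
Share of genes with an optimal summit within 1 kb (%), with 95% Wilson intervals, for members (blue) and all protein-coding genes (grey) in 3 classes of gene arrangement. Members were at 25.5%, 10.8% and 11.8%, beside 27.7%, 16.4% and 13.2% of all genes, and each blue bar covers the grey point.

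Short sequence words were sought on both strands in 101 bp around each summit. ATGCAAAT is the octamer bound by many POU factors, and ATGCAA is the shorter word inside it. TATCGATA is the element of DREF, a factor of growth and mitochondrial genes. TTACGTAA, TTACATAA and TTATATAA are core words of the nuclear respiratory gene element described at fly respiratory genes. The other words were the E-boxes CACGTG and CAGCTG, the core promoter word GGTCACAC of Ohler motif 1, TATAAA and GAGAGA. TTATATAA can overlap TATAAA, and TATCGATA, TTACGTAA, TTATATAA and both E-boxes are palindromes.

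The octamer was at 0 of the 19 member summits (0 to 16.8%), beside 1.59% of all optimal summits, and the shorter word was at 1, ND-ASHI, beside 10%. A core word of the nuclear respiratory gene element was at 2 summits, those of ND-SGDH and ND-MNLL, 10.5% (2.94 to 31.4%), beside 2.4%. CAGCTG was at 3 summits, those of ND-42, ND-51 and SdhD, 15.8% (5.52 to 37.6%), beside 2.68%. TATAAA was at 6, 31.6%, beside 22.2%, and the remaining 4 words were at 0. Over the 3002 optimal summits within 1 kb of a start site, the octamer was at 1.4% and the shorter word at 8.83%. In the same set the respiratory element core words were at 2.4%, CAGCTG at 3.86% and TATAAA at 21.2%. On 19 windows these are descriptions, and a word's presence does not show that a factor binds it.

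The summit windows of 5 members are shown that hold the shorter POU word, CAGCTG or a respiratory element core word, and no exon. Each is from the RefSeq sequence of dm6 on the strand of the member gene, with that word in capitals. TATAAA is not marked, although it lies 12 bp from the ND-ASHI summit, and windows that hold only TATAAA are not shown. The SdhD window is 90 bases, since it ends where an exon begins.
ND-ASHI, chrX:6679294-6679394, minus strand: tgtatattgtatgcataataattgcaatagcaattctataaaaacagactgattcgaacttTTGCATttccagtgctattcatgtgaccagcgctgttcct
ND-51, chr2L:6062792-6062892, minus strand: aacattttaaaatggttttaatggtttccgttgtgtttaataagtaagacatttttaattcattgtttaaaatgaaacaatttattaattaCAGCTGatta
SdhD, chr3R:23760601-23760690, minus strand: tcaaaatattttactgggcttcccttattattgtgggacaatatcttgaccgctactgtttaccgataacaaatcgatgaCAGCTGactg
ND-SGDH, chr3L:12138653-12138753, minus strand: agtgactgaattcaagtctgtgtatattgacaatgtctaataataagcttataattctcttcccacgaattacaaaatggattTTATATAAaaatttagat
ND-MNLL, chrX:7893803-7893903, minus strand: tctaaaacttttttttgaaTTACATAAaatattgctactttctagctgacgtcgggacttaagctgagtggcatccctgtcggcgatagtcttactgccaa

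Reading each line on its own strand, the ND-ASHI word TTGCAT is ATGCAA on the other strand and lies 14 bp from the summit. CAGCTG lies 44 bp from the ND-51 summit and 32 bp from the SdhD summit. TTATATAA lies 36 bp from the ND-SGDH summit, and TTACATAA lies 28 bp from the upstream ND-MNLL summit. None of these words is at the centre of its window.

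The promoters of the members, taken from 250 bases before to 50 after each start site, were also searched, whether or not a summit was present. TATCGATA was at 13 of 88 members, 14.8% (8.84 to 23.7%), an interval that holds the 10.2% of all genes. All 13 were standard genes, 20.6% of the 63 (12.5 to 32.2%), and it was at 0 of 24 paralogs (0 to 13.8%). Core words of the respiratory element were at 13.6% of members (7.98 to 22.3%), beside 6.4% of all genes, CAGCTG at 31.8% (23 to 42.1%) beside 22.3%, and GGTCACAC at 22.7% (15.2 to 32.5%) beside 8.71%. Among standard genes these 3 shares were 17.5%, 41.3% and 30.2%, and among paralogs they were 0%, 8.33% and 4.17%. GAGAGA was at 7.95% of members (3.91 to 15.5%), beside 17.1% of all genes, with 4.76% of standard genes and 16.7% of paralogs. The shorter POU word was at 15.9% (9.72 to 25%), beside 26.6%, with 14.3% of standard genes and 20.8% of paralogs. The octamer was at 2 members, 2.27% (0.625 to 7.91%), an interval that holds the 4.58% of all genes. Standard genes had 1.57 start sites on average, all genes 1.41 and paralogs 1.17. Standard genes were thus searched over a little more sequence than all genes, and paralogs over less.

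**Figure D5:**
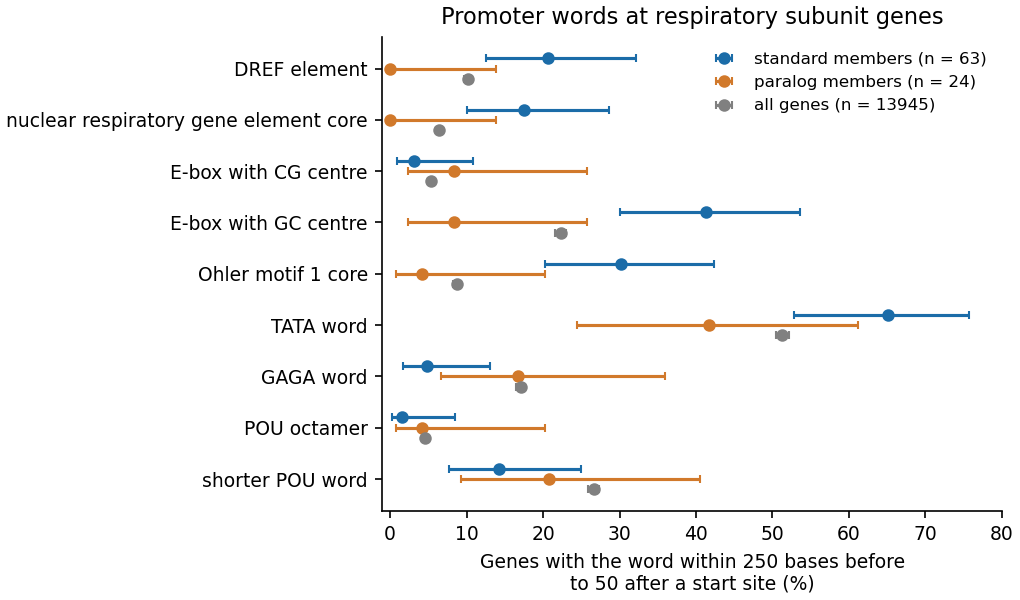
Share of genes with each word on either strand within 250 bases before to 50 after a start site (%), with 95% Wilson intervals, for 63 standard members, 24 paralog members and all 13945 genes. The DREF element is TATCGATA, the E-box with CG centre is CACGTG and that with GC centre CAGCTG. Standard members are at 20.6% for the DREF element and 30.2% for the Ohler motif 1 core, beside 10.2% and 8.71% of all genes.

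Of the 13 members with TATCGATA in a promoter, 5 also had an optimal summit: ND-SGDH, ND-ASHI, ND-MNLL, UQCR-14 and ATPsynE. The other 8 were ND-15, ND-B14.5B, ND-B15, ND-19, ND-23, ND-B14.5A, COX4 and COX7A. Over all genes with the word, 25.9% had a summit. The stretches of 30 bases around the word at the 5 genes are shown, each on the strand of the gene, with the word in capitals, from the RefSeq sequence of dm6.
ND-SGDH, chr3L:12138502-12138531, minus strand: atctctgctgtTATCGATAtatcaaaacag
ND-ASHI, chrX:6678188-6678217, minus strand: gaaactacaacTATCGATAgcagaccgttg
ND-MNLL, chrX:7893993-7894022, minus strand: agacgcccactTATCGATAagcggcttgtc
UQCR-14, chrX:16286215-16286244, plus strand: tgagtgcgataTATCGATAggtgcagtgtg
ATPsynE, chr3R:14327039-14327068, plus strand: accaatacaacTATCGATAgccgcctgtca

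The word was 186 bp from the summit at ND-SGDH, 1142 bp at ND-ASHI, 154 bp at ND-MNLL, 838 bp at UQCR-14 and 840 bp at ATPsynE. It was within the 101 bp window of 0 of the 19 member summits. Over all summits within 1 kb of a start site that share was 1.7%.

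Related genes were counted in 5 lists against the same background of 21.3%. The prefixes do not catch their symbols, except for Sdhaf3, a member without a summit that is also counted among the assembly factors. Of 10 further subunit and cytochrome c genes, 5 had an optimal summit (23.7 to 76.3%). The highest were at Cyt-c-d and Cyt-c-p, both cytochrome c genes, with signal values of 1068 and 841.1, and at blw, the ATP synthase alpha subunit, with 489.2. levy and cype, subunits of complex IV, had 219.9 and 138.1. The Cyt-c-d, blw, levy and cype summits also had another gene's start within 1 kb. The Cyt-c-p summit had none but was 933 bp from the Cyt-c-p start. Cyt-c1, RFeSP, ox, sun and knon had no summit.

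Of 11 assembly factor genes, 2 had a summit (5.14 to 47.7%): CIA30, a complex I assembly factor, with a signal value of 1438, and Cox17, a copper chaperone for complex IV, with 333.2. The CIA30 peak ranked 91, 65 and 97 in replicates 1, 2 and 3. Of 20 genes of the citrate cycle and pyruvate dehydrogenase, 4 had one (8.07 to 41.6%), namely Fum1, sharing the ND-ASHI summit, Idh3g at 737.2, muc at 98.86 and kdn, citrate synthase, at 92.85. Of 10 genes of mitochondrial DNA maintenance and expression, 2 had one (5.67 to 51%), mtSSB, the single-stranded DNA binding protein, at 381.4 and mTerf3 at 90.65. The CIA30, Cox17, Idh3g and mTerf3 summits also had another gene's start within 1 kb, while those of muc, kdn and mtSSB had none.

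Of 9 genes for regulators of respiratory genes, 3 had a summit (12.1 to 64.6%). These were Dref, which encodes the factor that binds TATCGATA, at 309.8, ERR, the estrogen-related receptor, at 244.9, and Nf-YA, a CCAAT-box factor subunit, at 117.1. The Dref summit was 4 bp upstream of the Dref start and is shared with the ribosomal protein gene RpL13. The ERR and Nf-YA summits were shared with other genes as well. srl, the fly PGC-1 homologue, ewg, Ets97D, Nf-YB, Nf-YC and Myc had none. The interval of each list held 21.3%, except that of the further subunit and cytochrome c genes, whose lower end was 23.7%. The highest summits of that list were at Cyt-c-d and Cyt-c-p, which are not subunits of a complex. These lists were chosen with earlier results of these data known, so their counts are descriptions.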

How the data were processed

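ChIP-seq of pdm3-GFP was done in 3 biological replicates of whole white prepupae, with chromatin sonicated to 200 to 800 bp, per the labels. The authors deposited narrowPeak lists with a signal value for each peak, whose normalization no source used here states. According to the readme in the labels, candidates of a replicate were derived from that library and 1 control file, and pooled candidates from the 3 libraries together. Analysis of irreproducible discovery rate on the candidates then gave the optimal peaks. Aligner, peak caller and threshold: not given in the sources used here. Neither the control library nor the dm3 lists were analysed here. No depth is given, and no peak had the same coordinates in all 3 replicate lists.

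Coordinates are on dm6 and counted from 1, and start sites (19607 on 6 chromosome arms) came from Ensembl release 115. A replicate peak matched a member peak when it covered at least 50% of its length. No p-values were computed: with 1 group, members were described by counts with 95% Wilson intervals beside all protein-coding genes, and across replicates by mean and SD. Counting, overlap and word search were tested on simulated data. Alternatives covered distance, nearest gene, stricter peak sets, all candidates, standard symbols, window size and leaving out each replicate.

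Every member is named once. Full values are given for the 12 members with the highest optimal summit, the 5 highest candidates of members without one, and the 3 peaks on each side of the lower limit. Genes sharing a summit with those 12 are named, except 1 that is not reported here. The members, lists and words were chosen with earlier results of these data known. Of the related-gene lists, 1 subunit symbol, 8 assembly factor symbols, 1 citrate cycle symbol and 2 regulator symbols were not in the annotation and were dropped. The 2 regulator symbols were other spellings of Nf-YA and Nf-YB, which were counted. The software was matplotlib 3.10.9, pandas 2.3.3, numpy 2.4.6 and scipy 1.17.1 under Python 3.11.15.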

Additional observations from a re-analysis of the deposited data

How the results depend on the processing

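Of 76 alternative values 35 stayed within 1.5 times the reported count, or within its interval or range, and 41 moved. Within 5 kb, 39 members had a summit (complexes I to V: 18, 4, 4, 6 and 7), beside 42.2% of all genes. Within 500 bp 13 members had a summit (complex III 1, IV 1), 14.8% beside 17.6% of all genes. Counting the nearest gene only left 10 members (complex I 5, IV 1, V 0), 11.4% beside 16.8% of all genes. The 50% of peaks with the higher signal left 11 (complex II 1, III 0, V 1), 12.5% beside 14.2% of all genes. Peaks covered over 50% by the top of all 3 replicate lists left 9: ND-51, ND-MWFE, ND-SGDH, ND-ASHI, ND-MNLL, COX7AL2, COX7B, SdhC and ATPsynE (complex I 5, II 1, III 0, V 1), beside 14.9% of all genes. At 80% overlap 3 were left (complex I 2, II 0, III 0, IV 1, V 0), beside 8.31%. All pooled candidates gave 31 members (complex I 15, IV 6), 35.2% beside 37.4%. With standard symbols only, complex IV had 1 of 8, 12.5% beside 21.3% of all genes. Leaving out a replicate keeps optimal peaks covered by the tops of the other lists, so it is a stricter selection and not an effect of that replicate alone. It gave 10 members without replicate 1 (11.4% beside 16% of all genes), 14 without replicate 2 (15.9% beside 18%) and 10 without replicate 3 (11.4% beside 15.7%), with ranges of 6 to 6 in complex I, 1 to 2 in II, 0 to 1 in III and 1 to 3 in V. The share of TATAAA at member summits was 57.9% with 100 bp to each side, beside 36.8% of all optimal summits, and the shares of the other 8 words stayed within their intervals. The cause of these shifts was not tested, apart from the smaller or larger sets of peaks that each setting makes by construction. The alternative with a RefSeq promoter table was not run.

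No paired analysis was possible because all samples belong to 1 group. The counts per complex are small, so a shift of 1 gene moves a share by several percentage points. The depth of each library is unknown, and peaks below the limit of the lists are not seen here. Proximity of a summit does not show which gene, if any, pdm3 regulates.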
